A study of Mus musculus with 6 samples.

Results

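The 47 genes described here encode the proteins of the spliceosomal snRNPs and the core factors that work with them. They were chosen by name from the 18312 genes of the deposited table, as the Sm and snRNP protein genes, the SF3a and SF3b subunits, the genes named Prpf for yeast pre-mRNA processing factors, both subunits of U2AF with a paralog, Lsm2 to Lsm7 and Sf1. Snrpn, the imprinted relative of Snrpb, was left out by the rule. Lsm8 fell within the rule but was not among the 18312 genes. The series holds RNA immunoprecipitation and sequencing of wild-type E14 mouse embryonic stem cells (mESCs) of the 129/Ola background, cultured in serum with LIF. The labels name 3 groups of 2 libraries, which are cytoplasmic RNA brought down with an antibody against Brf1 and Brf2, the same procedure with rabbit IgG as the control, and total RNA. Brf1 and Brf2 (genes Zfp36l1 and Zfp36l2) are zinc finger proteins that bind AU-rich elements in mRNA and speed its decay. E14 is 1 cell line, and no label says whether the 2 libraries of a group came from separate cultures.

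The table holds a single profile of 22625281 counts, and nothing in it names a library or a group. It was therefore assigned to no group, and Brf immunoprecipitate could not be compared with IgG or with total RNA. Every level below is 1 value without replicates. It describes the deposited profile and is not a measure of binding or enrichment, nor, since the group is unknown, of expression in the cells. Levels are in FPKM, counts scaled to the effective length of the gene model and to the total. The effective length is a corrected length that the authors' table gives for each gene. The authors' bounds, printed in brackets, lie 2 square roots of the count to each side and cover counting error only. No test between genes or groups was made. All 6 embryonic stem cell markers looked up were at 40.6 FPKM or more, with Pou5f1 at 605. Of 4 fibroblast markers, Tagln (125 FPKM) and Thy1 (3.74) were above 1 FPKM, and of 3 measured primitive endoderm markers Sparc (73.2) was. What these markers contribute to the levels below was not tested.

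Splicing removes introns through the stepwise assembly of small nuclear ribonucleoproteins on the pre-mRNA. The U1 snRNP binds the 5′ splice site, SF1 and U2AF mark the branch point and the 3′ splice site, and the U2 snRNP then takes over the branch point. The U4/U6.U5 tri-snRNP joins next and is rearranged into the catalytic centre. A ring of Sm proteins sits on U1, U2, U4 and U5 snRNA, an Lsm ring sits on U6 snRNA, and a rarer set of introns is removed by a minor spliceosome that contains U11 and U12. Sm rings are loaded in the cytoplasm by the SMN complex.

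Because the study concerned proteins that bind AU-rich elements, the core heptamer of those elements was looked up in the annotated 3′ UTR of each gene. TATTTAT was searched on the mRNA strand only, in the longest 3′ UTR of at least 50 nt that GENCODE M21 gives for the gene. It was present in 8 of the 47 genes, at 9 sites. Of these, 7 are shown with up to 10 bases on each side. In the longest 3′ UTRs of this gene set, they match the motif this protein family is known for. They are written 5′ to 3′ with the heptamer in capitals, with coordinates on GRCm38.
Lsm6, chr8:78804985-78805011, minus strand: caagtctggcTATTTATaggagaaagt
Prpf18, chr2:4624042-4624068, minus strand: ttctatgtggTATTTATagaaaatatt
Prpf40b, chr15:99316988-99317010, plus strand: ttttaaataaTATTTATaacatg
Sf3b1, chr1:54986512-54986538, minus strand: ctaatcagttTATTTATaagcagctat
Snrpb2, chr2:143071575-143071601, plus strand: aggacttggtTATTTATagtgtttgtt
Snrpd3, chr10:75537215-75537241, plus strand: agcctgttgcTATTTATctgttcttta
Snrpg, chr6:86379151-86379177, plus strand: agttttagaaTATTTATttgtatgaca
None of the 9 sites extended to the nonamer TTATTTATT, and the flanks of the 7 differed from site to site.

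The share of genes with the heptamer was close to that of other genes with 3′ UTRs of similar length. It was 17.0% of the core splicing genes, against 19.6% of other genes whose 3′ UTR was within 25% of the same length, averaged over the 47 genes, and 29.2% of all 17529 genes with a 3′ UTR. The 3′ UTRs of the core splicing genes were short, with a median of 435 nt, against 1050 nt for all genes, while AT content was alike, with medians of 56.3% in both. The 8 genes with the heptamer had a median 3′ UTR of 2112 nt, against 361 nt for the other members. ATTTA, the pentamer inside the heptamer, was in 23 of the 47 genes (48.9%), against 53.2% of genes of similar 3′ UTR length and 67.6% of all genes. The nonamer was in none of the 47, against 5.18% and 8.06%. A match of letters is a description and not a binding site.

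In the longest 3′ UTRs the heptamer was found in genes of widely different levels. Snrpg at 477 FPKM, the highest of the 47 genes, had a site, and so did Prpf40b at 7.69, the second lowest. The Snrpg site, however, was not in a transcript that matched the model behind its level. The median level was 69.3 FPKM for the 8 genes with the heptamer and 57.9 for the others. With the shortest 3′ UTR the medians were 59.9 and 58.1. In the transcript closest in length to the authors' model the order was reversed, at 16.7 against 59.9. That set, however, covers only 38 genes and lacks Snrpg, Snrpd3 and Snrpb2. The site of Prpf40b lies 6 nt before the annotated end of its 3′ UTR. The site of Snrpb2 starts 30 nt into the 3′ UTR. The choice of transcript mattered for this count. In that closest transcript, available for 38 genes, 5 had the heptamer, namely Lsm6, Prpf18, Prpf40b, Sf3b1 and Snrnp27. These 5 lay between 7.69 FPKM for Prpf40b and 59.9 for Sf3b1. For Snrpg, Snrpd3 and Snrpb2 no transcript of the model's length was annotated. In the annotated 3′ UTR the Snrpd3 site starts at position 1903, past the whole length of its model, 604 nt. The Snrpg site starts at position 378, which leaves little of its model of 393 nt for coding sequence. The Snrpd3 and Snrpg sites would fit only if the models are spliced otherwise than annotated. The Snrpb2 site starts at position 30, and its model has 1230 nt. Whether each model behind the FPKM values holds its site was not tested.

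**Figure D1:**
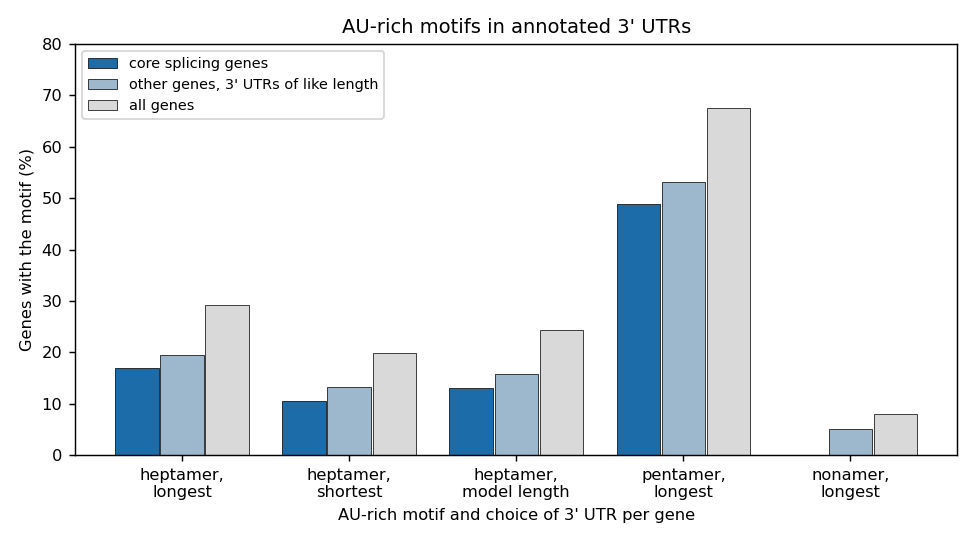
Share of genes (%, vertical axis) with an AU-rich motif in the annotated 3′ UTR, for the core splicing genes, for other genes with 3′ UTRs of like length and for all genes, by motif and by the 3′ UTR chosen for each gene (longest, shortest, or that of the transcript nearest the model length). For the heptamer in the longest 3′ UTR the bars stand at 17.0%, 19.6% and 29.2%, and the core splicing genes have no nonamer.

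All 47 genes were present at 5.44 FPKM or more, against 56.0% of all genes at 1 FPKM or more. Their median was 58.3 FPKM, against 1.94 for all 18312 genes and 9.66 for the 10257 genes with at least 1 FPKM, and 45 of the 47 lay above the last of these. Together they held 204128 counts, 0.902% of the total. By rank, 33 (70.2%) were in the top 10% of all genes and 44 (93.6%) in the top 20%. Snrpg was highest at 477 FPKM and Snrnp35 lowest at 5.44, an 87.7-fold span. Precision was high for most, since counts ran from 244 for Snrnp35 to 18472 for Prpf8 and the bounds from 12.8% to 1.47% of the level. Even so, the bounds of 27 of the 46 pairs of neighbours in the order overlapped, so the order is resolved only in part.

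**Figure D2:**
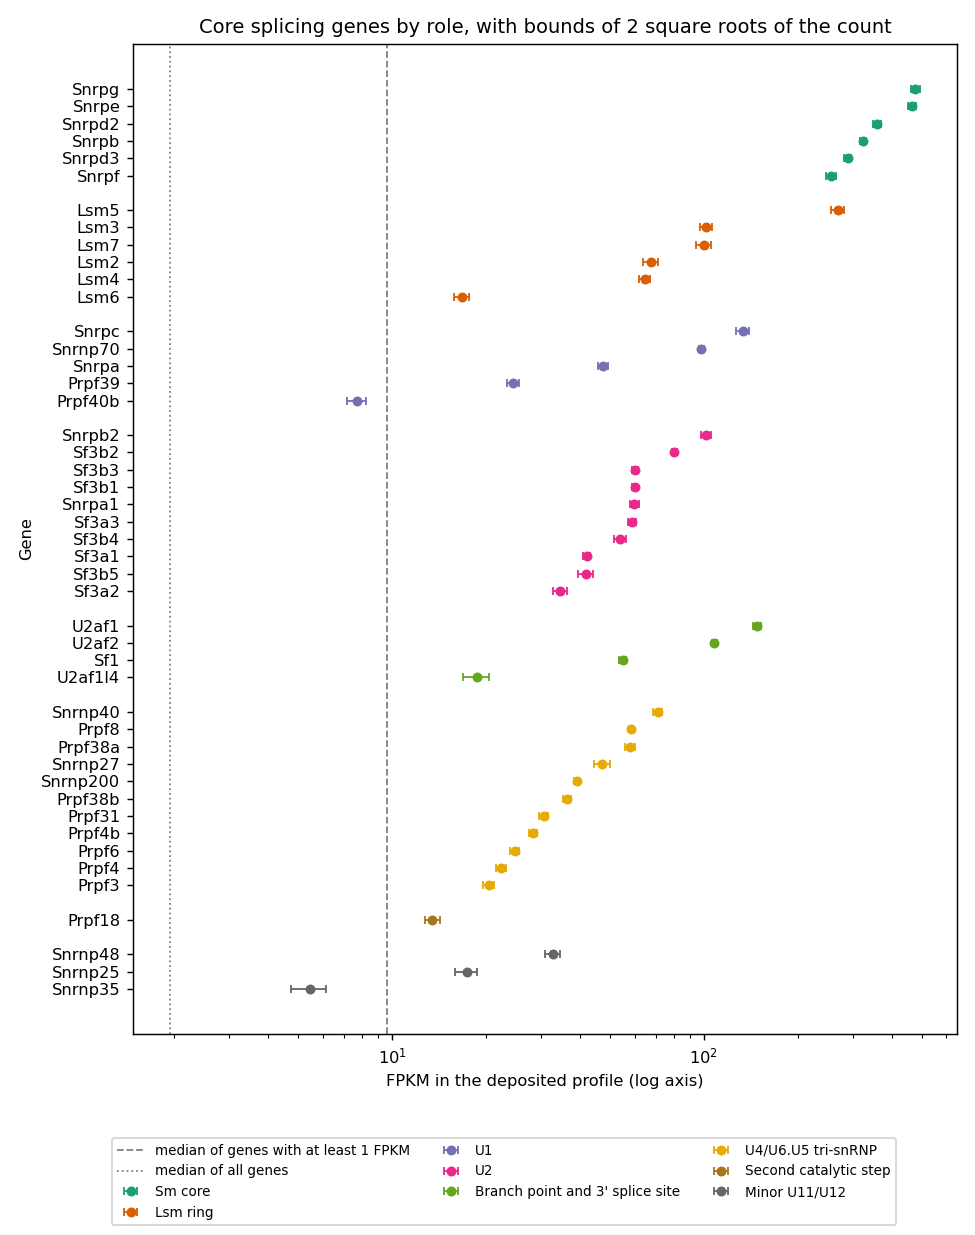
FPKM of 46 of the 47 genes in the single deposited profile (horizontal log axis), grouped by role, with points for the authors' values and bars for their bounds of 2 square roots of the count. The 6 Sm genes lie between 255 and 477 FPKM, above every other gene except Lsm5, and the dashed and dotted lines mark medians of 9.66 FPKM for genes with at least 1 FPKM and 1.94 for all genes.

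The Sm genes were the most abundant and the most even group. Of the 7 genes of the ring, 6 were analysed here. Snrpg had 477 FPKM (461 to 493) and Snrpe 465 (451 to 478), and their bounds overlapped. Snrpd2 had 360 FPKM (349 to 370), Snrpb 324 (317 to 331), Snrpd3 289 (281 to 297) and Snrpf 255 (246 to 265). These proteins form the heteromeric ring around the Sm site of the snRNA, in which each occupies 1 position. The highest was 1.87 times the lowest, and all ranked between the 121st and the 205th of all genes. On the model length the ring spread to 2.93-fold, since Snrpf was then at 152 FPKM while the other 5 were between 326 and 446. Snrpf was then below genes outside the ring, namely Snrnp70 (258), U2af1 (245) and U2af2 (204).

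The Lsm genes other than Lsm5 were lower than every Sm gene, and as deposited the group was far less even, in large part through Lsm6. Lsm5 had 269 FPKM (257 to 282), Lsm3 102 (96.9 to 106), Lsm7 100.1 (94.6 to 106), Lsm2 67.5 (63.8 to 71.1), Lsm4 64.6 (61.9 to 67.3) and Lsm6 16.7 (15.8 to 17.7). These proteins are shared by the nuclear ring on U6 snRNA and the cytoplasmic ring that promotes decapping. Of the 7 genes listed for the nuclear ring, 6 were measured, without Lsm8. Lsm5 was 16.1 times Lsm6 (95% counting interval 15.0 to 17.3), and 9.83 times on the model length. Bounds overlapped between Lsm3 and Lsm7 and between Lsm2 and Lsm4, although on the model length Lsm4 had 105 FPKM and Lsm2 70.0. Lsm6 combines 1324 counts, close to the 1297 of Lsm7, with a model of 3702 nt against 468 nt. Without Lsm6 the Lsm genes lay between 64.6 and 269 FPKM, and between 70.0 and 155 on the model length. On the model length they were thus no less even than the Sm genes, which lay between 152 and 446 FPKM. Lsm1, which takes the place of Lsm8 in the decapping ring, had 15.3 FPKM (14.2 to 16.5), with bounds that overlap those of Lsm6. Lsm10 and Lsm11, which belong to the U7 snRNP of histone mRNA processing, were lower, at 6.03 and 2.63 FPKM.

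The 6 U1 genes spread over a 17.3-fold range, with a member of the snRNP at the top and an associated factor at the bottom. Snrpc, the zinc finger protein that steadies U1 on the 5′ splice site, had 133 FPKM (127 to 139). Snrnp70, which binds the first stem-loop of U1 snRNA and contacts regulators through its arginine-rich tail, had 98.1 (96.1 to 100.1). Snrpa, which binds the second stem-loop, had 47.5 (45.8 to 49.2). The order of these 3 depended on the length used, as Snrnp70 on the model length had 258 FPKM against 110 for Snrpc and 102 for Snrpa. Among U1-associated factors, Prpf39 had 24.4 FPKM (23.3 to 25.5) and Prpf40b 7.69 (7.17 to 8.22), and their bounds did not overlap.

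The U2 genes lay close together. Their 10 measured members ran from 34.6 FPKM for Sf3a2 to 101 for Snrpb2, a 2.93-fold span around a median of 59.3. Sf3b1, the large SF3b subunit that clamps the branch point region, had 59.9 FPKM (58.8 to 61.0). Sf3b3, its scaffold partner, had 60.1 (58.9 to 61.3), and the ratio of Sf3b1 to Sf3b3 was 0.997 (0.971 to 1.02). On the model length that ratio was 0.822 (0.801 to 0.844). Sf3b2 had 80.4 FPKM, Sf3b4 53.9 and Sf3b5 41.8, and Phf5a, a further SF3b subunit outside the 47, had 74.5. Sf3b5, at 78.7 FPKM (74.3 to 83.1), was above Sf3b4, at 53.8 (51.4 to 56.1), on the model length.

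In the SF3a complex, which joins U2 to SF3b, Sf3a3 had 58.8 FPKM (57.0 to 60.5), Sf3a1 42.0 (40.9 to 43.1) and Sf3a2 34.6 (32.7 to 36.4). The bounds of these 3 did not overlap. Sf3a3 was 1.70 times Sf3a2 (1.60 to 1.81), and 2.94 times on the model length. Snrpa1 and Snrpb2 encode a pair of U2-specific proteins that bind U2 snRNA together. Snrpb2 was 1.69 times Snrpa1 (1.61 to 1.78) as deposited. On the model length the ratio was 0.971 (0.923 to 1.02), so the difference between these partners rests on the effective length.

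The factors that recognise the 3′ end of the intron differed more. U2af1, the small U2AF subunit that reads the AG at the 3′ splice site, had 148 FPKM (144 to 152). U2af2, the large subunit that binds the polypyrimidine tract, had 108 (106 to 110.1). U2af1 was 1.37 times U2af2 (1.33 to 1.42), and 1.20 times on the model length. Sf1, which binds the branch point before U2 does, had 54.8 (53.4 to 56.2). U2af1l4, a paralog of the small subunit, had 18.7 (16.9 to 20.5). U2af1 was 7.91 times as high (7.17 to 8.72), and 10.9 times (9.92 to 12.1) on the model length. These intervals cover counting error only, and both genes share much sequence with other annotated genes, as described below.

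The 11 tri-snRNP genes had a median of 36.4 FPKM, lower than that of the Sm, Lsm, U1, U2 and 3′ splice site groups. Among the U5 proteins, Snrnp40 had 71.1 FPKM (68.8 to 73.4). Prpf8, which holds the catalytic RNA, had 58.3 (57.5 to 59.2), and Snrnp200, the helicase that unwinds U4 from U6, had 39.0 (38.3 to 39.8). Eftud2, the U5 GTPase outside the 47, had 52.0. Prpf8 had the most counts of the 47 genes, 18472, on a model of 7481 nt, and its level was the median of the set. Prpf8 was 1.49 times Snrnp200 (1.46 to 1.53), and 1.47 times on the model length.

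The U4/U6 proteins among the 47 genes, Prpf31, Prpf4 and Prpf3, were lower than the U5 proteins named above, but this did not hold for all proteins of either kind. Prpf31, which binds U4 snRNA, had 30.6 FPKM (29.6 to 31.6), Prpf4 22.4 (21.5 to 23.3) and Prpf3 20.4 (19.6 to 21.3). Prpf3, at 39.1 FPKM, was above Prpf4, at 22.2, on the model length. Prpf6, a U5 protein that bridges U5 and U4/U6, had 24.7. The U5 proteins Ddx23 and Cd2bp2, outside the 47, were likewise below Prpf31 as deposited, at 27.9 and 24.2 FPKM. The U4/U6 partners outside the 47, Nhp2l1 and the cyclophilin Ppih, were higher, at 184 and 72.7 FPKM. Nhp2l1 is also a core protein of the box C/D snoRNPs. Among factors of tri-snRNP joining and activation, Prpf38a had 57.9, Snrnp27 47.1, Prpf38b 36.4 and the kinase Prpf4b 28.2. Prpf18, which acts in the second catalytic step, had 13.5 FPKM (12.7 to 14.2), the third lowest of the 47.

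The minor spliceosome genes were low, but other core splicing genes lay in the same range as deposited. Among these were Prpf31, Prpf4b, Prpf6, Prpf39, Prpf4, Prpf3, Prpf18 and Prpf40b, from 30.6 down to 7.69 FPKM. Snrnp48 had 32.7 FPKM (30.8 to 34.6), Snrnp25 17.4 (15.9 to 18.8) and Snrnp35, the U11 counterpart of the U1 70K protein, 5.44 (4.74 to 6.13). Snrnp48 was 1.88 times Snrnp25 (1.71 to 2.08) as deposited, but 0.930 times (0.844 to 1.03) on the model length. It was 6.01 times Snrnp35 (5.24 to 6.90), and 3.04 times on the model length. Another 6 minor spliceosome genes outside the 47 ran from 5.14 FPKM for Zrsr1 to 30.1 for Zcrb1, with a median of 9.90. All 9 were thus at or below 32.7 FPKM, while the 10 U2 genes were at or above 34.6. On the model length the ranges overlapped, from 7.18 to 41.2 for the 9 minor spliceosome genes and from 37.9 to 149 for the U2 genes.

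The lists of other spliceosome factors and of snRNP assembly genes had lower medians than the core splicing genes. Of 37 other spliceosome factors listed, 31 were measured, all at 2.16 FPKM or more, with a median of 37.7. Nhp2l1 was highest and Txnl4b lowest. Of 14 genes of snRNP assembly, 11 were measured, with a median of 30.2 FPKM, from Strap at 97.4 to Gemin8 at 4.45. Smn1 had 42.3 FPKM and Prmt5, which methylates Sm proteins, had 58.8. The core splicing genes, at a median of 58.3 FPKM, stood below the 27 SR protein and hnRNP genes, at 166, and the 38 proteasome subunit genes, at 94.4. With 1 profile these differences between lists were not tested.

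**Figure D3:**
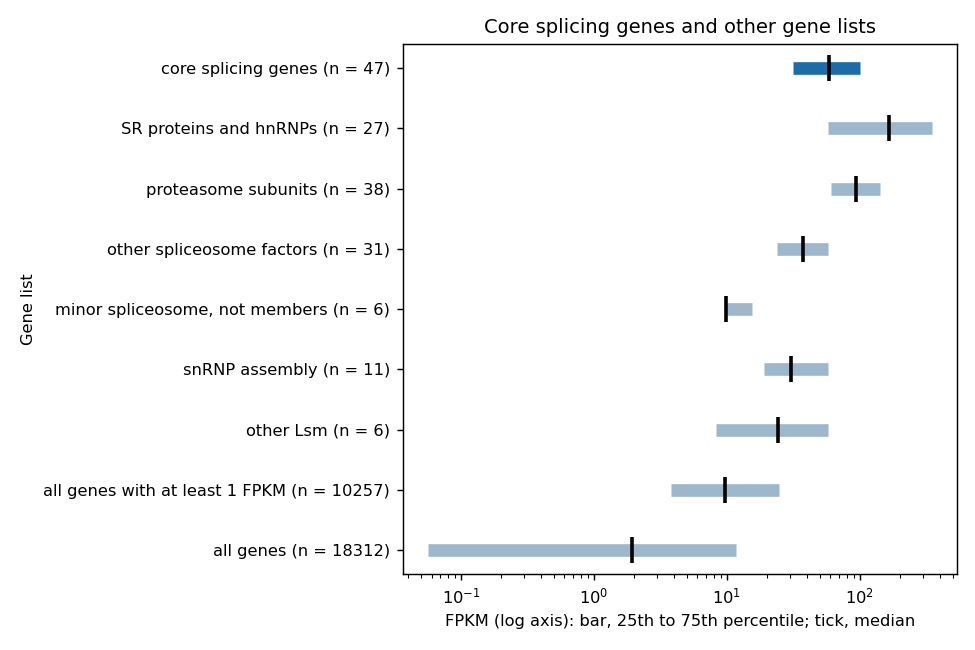
FPKM (horizontal log axis) of the 47 core splicing genes and of other gene lists in the single deposited profile, with bars from the 25th to the 75th percentile of genes and ticks at the median. The median is 58.3 FPKM for the core splicing genes, 166 for SR proteins and hnRNPs, 94.4 for proteasome subunits, 37.7 for other spliceosome factors and 1.94 for all genes.

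Much of the order within complexes depended on the effective length. Across the 47 genes its ratio to the model length had a median of 1.42, against 1.27 for all genes. The ratio was highest for Snrnp70, at 2.63, and lowest for Lsm5, at 0.577. On the model length 35 genes were higher beyond their bounds, 8 were lower beyond them and 4 stayed within. Snrnp70 went to 258 FPKM and to the 6th place among the 47, against the 14th as deposited. Snrpd2 became the highest gene, at 446 FPKM. The 2 orders had a Spearman rho of 0.955 across the 47 genes, which share the profile and the counts. Shorter models had higher levels, with a Spearman rho of -0.529 between model length and FPKM across the 47 genes and -0.190 across the 10257 genes with at least 1 FPKM. Genes are not independent replicates, and both quantities contain the length.

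**Figure D4:**
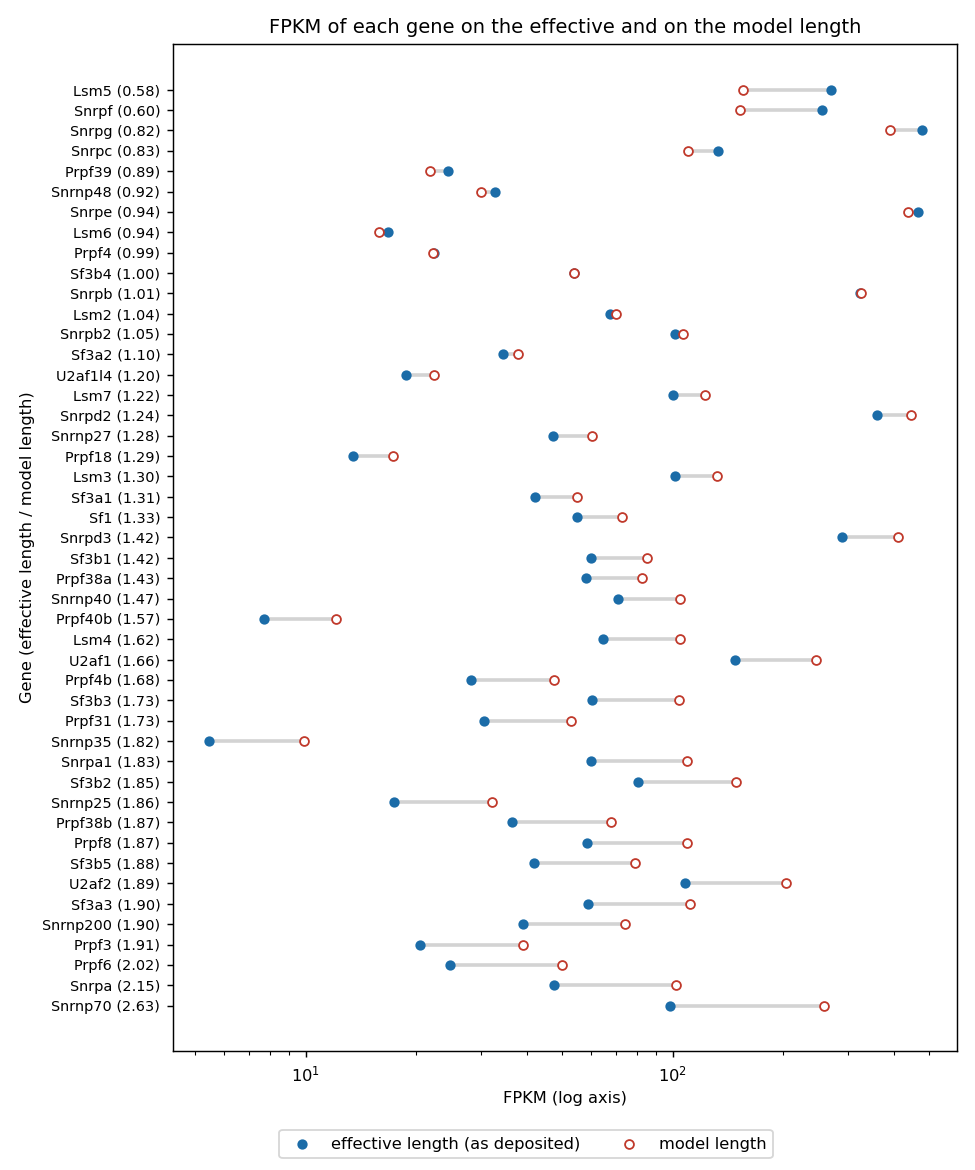
FPKM (horizontal log axis) of 46 of the 47 genes as deposited, on the effective length (filled), and recomputed on the model length (open), ordered by the ratio of the lengths, printed in brackets. Genes with ratios above 1 lie further right on the model length, most of all Snrnp70, at 258 FPKM against 98.1.

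Several members share sequence with other annotated genes, so that reads could be shared. For the 38 genes with an annotated transcript of the model's length, every stretch of 50 bases was looked up on either strand in transcripts of other GENCODE genes. Over 20% of the stretches recurred for 10 genes and none recurred for 14. U2af1l4 shared 93.3%, mainly with a transcript annotated as Gm49396. Snrpf shared 89.5%, mainly with the protein-coding gene Ccdc38. U2af1 shared 62.8% and Lsm7 62.8%, mainly with processed pseudogenes, and Lsm5 shared 44.0%. U2af1l4 and Lsm3 shared no stretch with a pseudogene, and the stretches of Lsm3 recurred in a transcript annotated as sense overlapping. The deposited total and unique counts were equal in every row. Whether reads of the shared stretches were added to these genes or lost from them therefore cannot be told apart. The levels of the 10 genes, which also include Snrpa, U2af2, Snrpe, Snrpc and Lsm3, are uncertain on that account. Genes without a transcript of the model's length were not checked. These are Snrpg, Snrpd2, Snrpd3, Snrpb2, Sf3b4, Sf3b5, Sf3a2, Sf1 and Prpf4b, so sharing is unknown for several of the highest Sm genes.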

How the data were processed

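The members and lists were chosen with earlier results of these data known. The submitters' processing notes name CASAVA (1.8.2), Bowtie (1.1.2), eXpress (1.1.1) and, as the build, mm9, with no role or setting for any of them in the sources used here. For 1 model per gene symbol, the authors deposited counts and estimated counts, not normalized, and FPKM with its bounds, per the file headers. Recomputing FPKM from count, effective length and total gave the deposited values within 0.000173 of each value. The row of totals, which has no gene name, was not used. How strand was treated is unknown here, which leaves overlapping genes unresolved. Since the columns carry no library names, the planned limma comparison of Brf immunoprecipitate with IgG was not run. Levels on the model length, list medians, ratios with 95% counting intervals (log scale, from both counts), ranks, 3′ UTR motifs and shared 50-base stretches were computed in Python (3.11.15) with pandas (2.3.3), numpy (2.4.6) and scipy (1.17.1), and drawn with matplotlib (3.10.9). All 47 symbols matched GENCODE M21 (GRCm38), as did 18077 of all 18312, directly or by 1 RefSeq synonym. A transcript within 10% of the model length counted as matching it. Motif search and coordinate mapping were tested on simulated data. The rule for named genes was every member by role, with the highest, the lowest and complex partners from each pathway list. The values of 1 member are not reported here, though it is included in counts and medians.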

Additional observations from a re-analysis of the deposited data

How the results depend on the processing

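All 47 genes stayed at or above the threshold on the model length, at 5 FPKM and with a minimum of 10 counts. Of all 18312 genes, 10654 reached 1 FPKM on the model length and 7010 reached 5 FPKM as deposited. At least 10 counts were held by 12921 genes, so that minimum sets the 47 apart least. The median of the 47 was 58.3 FPKM with the minimum of 10 counts and 85.2 on the model length. Both medians use the same counts and total, and only the length differs. Why the effective lengths differ from the model lengths was not tested. The heptamer was in 8 genes in the longest 3′ UTR and in 5 in the shortest (Prpf18, Sf3b1, Snrnp27, Snrpb2 and Snrpg). It was in 5 in the transcript nearest the model length, an alternative chosen after seeing the data, and the nonamer was in 0. The nearest transcript was available for 38 genes, so Snrpg, Snrpd3 and Snrpb2 dropped out there for want of one, while Snrnp27 gained sites in both alternatives. The nonamer contains the heptamer, so it can only be rarer in the same region. No paired analysis was possible because nothing in the deposited columns tells libraries or replicates apart. The pseudocount, filter, left-out library and replicate block settings planned for the comparison with IgG were therefore not run. One profile has no replicate error, and its bounds cover counting error only.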
